A study of Mus musculus with 30 samples.

Results

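The analysis asked how the transcriptional response of mouse embryonic stem cells to loss of the cohesin release factor WAPL differed when the cohesin loader NIPBL was depleted at the same time. It rests on 12 of the 30 libraries of the series, 3 in each of 4 groups, chosen by their labelled line and treatment. The quantity followed is an interaction: the log2 change on treatment in the line with both degrons minus the log2 change on treatment in the line with the WAPL degron alone. A positive interaction means that a gene stood higher after treatment of the line with both degrons than the response of the other line would give. Every gene in the count table was a candidate, and 19868 were tested.

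All libraries came from E14 cells, an XY mouse embryonic stem cell line, grown in serum with LIF and the inhibitors PD0325901 and CHIR-99021, which block MEK and GSK3. The WAPL line (cell line CMW184) carried WAPL-AID and Tir1. AID is an auxin-inducible degron, through which the plant protein Tir1 directs a fused protein to the proteasome when auxin is present. The WAPL-NIPBL line (cell line EN382.1), called the combined line below, carried WAPL-AID, NIPBL-FKBP, RAD21-Halo and Tir1. The FKBP tag is a degron driven by dTAG-13, and HaloTag is a labelling tag, placed here on a cohesin subunit. The WAPL line was sampled untreated and after 24 h in 500 µM auxin, and the combined line untreated and after 24 h in auxin at that dose with 500 nM dTAG-13. No group that lost NIPBL alone, and none that received dTAG-13 alone, was among the samples analysed here. NIPBL loss, dTAG-13, the RAD21 tag and the choice of cell line therefore cannot be told apart in any value below. Whether replicates were separate cultures is not stated. The p-values therefore measure the spread between libraries, estimated over all 30 of the series without the replicate number, and this spread may be technical.

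Cohesin is a ring-shaped complex that holds and extrudes loops of chromatin. NIPBL loads cohesin and drives its loop-extruding activity, and WAPL releases cohesin from chromatin, so cohesin stays bound longer and loops grow when WAPL is lost. In embryonic stem cells, cohesin loops bring enhancers near promoters of genes that hold the pluripotent state, and CTCF, a DNA-binding factor often found at loop anchors, halts cohesin in an orientation-dependent way.

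The 12 libraries held 22235051 to 33976968 counted fragments. The tagged genes still had transcripts under treatment, since degrons act on protein, and protein was not measured here. Wapl stood at 163 to 187 CPM (fragments scaled to library size by edgeR) in the untreated WAPL line and at 150 to 196 after auxin. Nipbl was lower in the combined line before treatment already, at 66.6 to 75.3 CPM against 130 to 164 CPM in the untreated WAPL line. Rad21 differed the same way between the untreated lines, by a log2 difference of -0.51 (adjusted p = 3.17e-07 by edgeR). Cyp1a1 and Cyp1b1, enzymes induced by the aryl hydrocarbon receptor, rose under treatment in both lines by a log2 change of 4.53 and 5.58 in the WAPL line and 4.89 and 5.70 in the combined line. Their interactions were 0.36 (95% interval -0.25 to 0.97) and 0.13 (95% interval -1.20 to 1.45). Of the 10 tested genes of that receptor's pathway 2 (20%, against 5.19% of all genes) had a called interaction, Aldh3a1, an aldehyde dehydrogenase (1.39), and Ahr, the receptor itself (0.55). Both were weakened genes that fell in the WAPL line, by a log2 change of -1.77 and -0.81. The call of Ahr was lost without untreated or auxin-treated WAPL replicate 1, untreated WAPL-NIPBL replicate 3 or treated WAPL-NIPBL replicate 2, with adjusted p up to 0.0921. The 8 markers of embryonic stem cells summed to 6260 to 6500 CPM in the untreated WAPL line, 4940 to 5150 CPM after auxin, 6360 to 6510 CPM in the untreated combined line and 5330 to 5490 CPM after treatment. The stem cell label thus matched the markers in every group, and the sums of the groups of each line did not overlap. Fibroblast markers summed to at most 14.1 CPM, with Postn at 0 in 3 of the 4 groups.

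The interaction was called for 1032 of the 19868 genes (5.19%) at an adjusted p under 0.05 by edgeR's quasi-likelihood test. Of these, 602 (3.03% of those tested) were higher and 430 (2.16%) were lower. For comparison, auxin in the WAPL line called 6517 genes (32.8%), 3385 higher and 3132 lower, and treatment of the combined line called 1702 (8.57%), 1016 higher and 686 lower. The replicate numbers pair these libraries, and with the number as a block the interaction was called for 1529 genes over all 30 libraries and for 2750 over the 12 libraries alone. The 1529 included each of the 1032. Without untreated WAPL replicate 1 the count of higher genes was 397, and without auxin-treated WAPL replicate 3 it was 374.

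Most called genes had lost much of their WAPL response in the combined line. They were sorted by which effects were called and by their signs. The effect of auxin in the WAPL line and the interaction share the 6 WAPL libraries, which by itself favours opposite signs, so these classes describe the genes and are not tests. In 948 genes, termed weakened, the effect of auxin was called, the interaction had the opposite sign, and no effect in the opposite direction was called in the combined line. They made up 14.5% of the genes called in the WAPL line. Of the 543 weakened genes that fell under auxin, the median log2 change was -0.68 in the WAPL line and -0.05 in the combined line. For the 405 weakened genes that rose, it was 0.99 and 0.155. On leaving out a library the weakened genes that fell numbered 335 to 589 and those that rose 299 to 427. The first number was 354 without untreated WAPL replicate 1 and 335 without auxin-treated WAPL replicate 3. In 759 of the 948 the combined line had no called effect, and in 627 the 95% interval of the combined effect lay within 1.5-fold of no change. Another 25 genes, termed turned, changed in opposite directions in the lines. In 2 genes, termed enlarged, the effect had the same direction and grew. In 42 genes, termed combined-line genes, an effect was called in the combined line and none in the WAPL line. The other 15 called genes had no called effect in either line. A further 622 genes, termed retained, had called effects of one direction in both lines, no called interaction and an interaction interval within 1.5-fold. For the other 4920 genes called in the WAPL line the data placed the interaction in none of these classes. In the TIR1 line, which carried Tir1 with no degron tag and was sampled untreated and after 24 h in 500 µM auxin (3 libraries each), auxin called 3962 genes (19.9%). It called 34.9% of the weakened genes, 196 in the direction of the WAPL line and 135 in the opposite one. Among retained genes it called 269 (43.2%), 222 in that direction and 47 in the opposite one. The part of auxin itself in these classes was not tested.

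**Figure D1:**
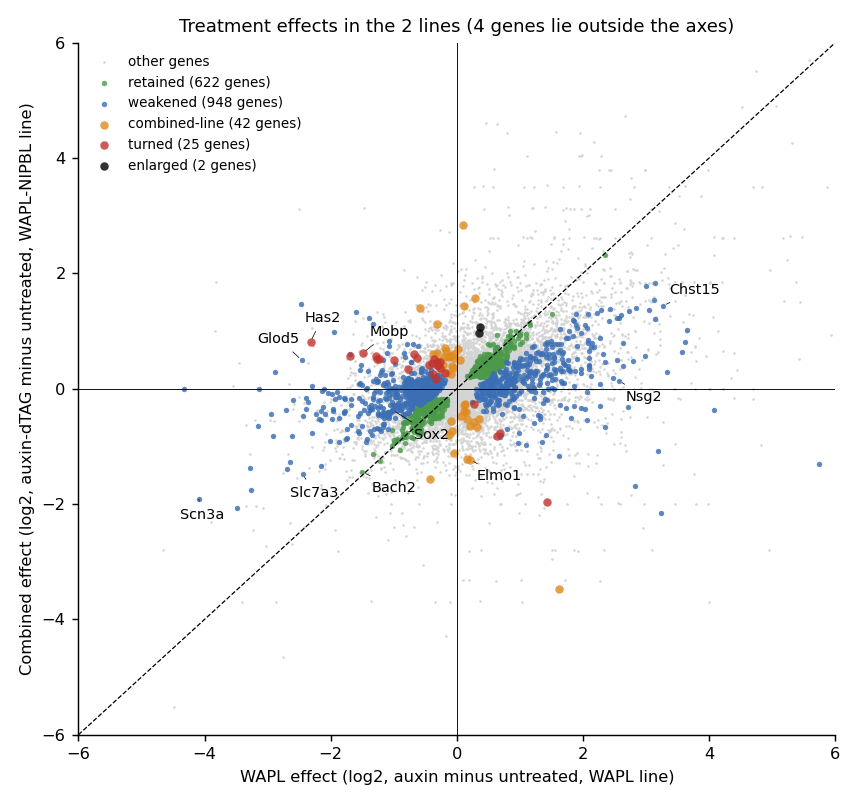
Each point is a gene, with the log2 change under auxin in the WAPL line on the x axis and the log2 change under auxin with dTAG-13 in the combined line on the y axis, coloured by class, with other genes in grey and a dashed line at equal change. The weakened genes spread along the x axis near a y value of 0, while the 622 retained genes follow the diagonal.

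The largest weakened genes that fell under auxin held levels in the treated combined line well above those of the treated WAPL line. Glod5, a glyoxalase-domain gene (chrX:8004200-8018492, GRCm38), stood at 4.94, 4.02 and 3.98 CPM in the untreated WAPL line and at 0.805, 0.968 and 0.574 CPM after auxin. In the combined line it stood at 6.3, 6.17 and 4.4 CPM untreated and at 8.13, 8.54 and 7.08 CPM treated. The groups did not overlap in either line. The treated libraries lay lower in the WAPL line and higher in the combined line, where the log2 change of 0.50 was not called. The interaction was 2.96 (SE 0.321, adjusted p = 6.41e-07). Cxcl14, a chemokine, went from 4.14, 4.41 and 4.45 CPM to 0.728, 0.734 and 0.665 CPM in the WAPL line. In the combined line it started lower, at 2.23, 2.26 and 2.44 CPM, and was at 2.42, 2.05 and 1.68 CPM after treatment, so those groups overlapped. Its interaction was 2.42 (SE 0.224, adjusted p = 3.37e-08). Msc, which encodes the bHLH repressor musculin, fell from 5.65, 5.04 and 3.98 CPM to 0.728, 0.792 and 0.726 CPM under auxin. The untreated combined line already held 15.7, 11.9 and 13.2 CPM of it, and 12.5, 8.42 and 10.7 CPM after treatment, an interaction of 2.33. The next genes by size were Sstr2, a somatostatin receptor (interaction 2.33), Fam19a4, a secreted chemokine-like factor (2.30), and Prss41, a serine protease (2.23). These 6 genes were called under each of 18 alternative settings. Exons of Msc and Prss41 overlap genes on the other strand, and strand was not used in counting, so their values are less certain.

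Of the 405 weakened genes that rose under auxin, 389 had a lower fitted level in the treated combined line than in the treated WAPL line, and 16 a higher one. The interaction that defines weakened genes of either direction contains this difference, so such counts largely follow from the class and are only a description. Nsg2, a neuronal vesicle protein (chr11:32000463-32059202), rose from 1.61, 1.9 and 0.905 CPM to 11.7, 8.16 and 6.95 CPM in the WAPL line. In the combined line it was at 2.13, 1.2 and 1.78 CPM untreated and at 2.25, 1.96 and 1.42 CPM treated. The combined-line groups overlapped, and the interaction was -2.43 (SE 0.363, adjusted p = 6.97e-05). Chst15, a sulfotransferase that acts on chondroitin sulfate, rose from 2.38, 2.89 and 2.95 CPM to 27, 28.7 and 23.4 CPM in the WAPL line. It rose in the combined line too, from 1.75, 2.47 and 1.78 CPM to 4.54, 5.76 and 5.98 CPM. The log2 changes were 3.27 and 1.44, both called, and the interaction was -1.83 (SE 0.253, adjusted p = 2.59e-05). Fras1, a basement membrane protein (interaction -2.13), Plscr2, a phospholipid scramblase (-1.91), Grap2, an adaptor of T cell receptor signalling (-1.88), and Pou4f2, a homeodomain factor of retinal ganglion cells (-1.76), completed the largest 6. In Pou4f2 the log2 change in the combined line was -0.77 and was not called, with an adjusted p of 0.0786. All 6 were called under each of 18 settings. Exons of Chst15 and Fras1 overlap genes on the other strand.

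In 25 genes the effects were called in opposite directions, 21 falling and 4 rising in the WAPL line. Has2, which encodes a hyaluronan synthase (chr15:56665627-56694539), fell from 1.61, 2.29 and 2.28 CPM to 0.383, 0.323 and 0.514 CPM under auxin. In the combined line it rose from 5.5, 3.98 and 3.63 CPM to 8.44, 7.56 and 6.97 CPM. The changes were -2.32 and 0.81, with no overlap between groups, and the interaction was 3.13 (SE 0.352, adjusted p = 9.47e-07). Mobp, a myelin-associated protein of oligodendrocytes, fell from 21.2, 21.1 and 18.8 CPM to 5.6, 8.3 and 7.8 CPM in one line and rose from 39.2, 37.5 and 41.4 CPM to 56.1, 59.4 and 66.2 CPM in the other. Its interaction was 2.11 (SE 0.228, adjusted p = 6.41e-07). Slc25a48, a mitochondrial carrier, and Islr2, a leucine-rich repeat protein of neurons, had interactions of 1.85 and 1.77.

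The 4 genes that turned from a rise to a fall were Bnc2, Id1, Ext1 and 3300002P13Rik, the last with a mean of 8 fragments per library and named after its value was seen. Bnc2, a zinc-finger protein (chr4:84275095-84675275), rose from 4.23, 4.02 and 4.65 CPM to 5.44, 7.39 and 7.83 CPM in the WAPL line and fell from 8.01, 6.38 and 7.37 CPM to 4.15, 4.23 and 4.41 CPM in the combined line. Its interaction was -1.45 (SE 0.199, adjusted p = 2.43e-05). Id1, a target of BMP signalling that blocks bHLH factors, rose from 4.88, 5.01 and 5.98 CPM to 9.35, 7.54 and 7.68 CPM and fell from 3.88, 3.28 and 5.69 CPM to 2.9, 1.78 and 2.73 CPM. Ext1, a subunit of the heparan sulfate polymerase, moved less, with changes of 0.27 and -0.27 and an interaction of -0.54 (adjusted p = 0.00349). The number of turned genes depended on the libraries and the model. It was 14 without untreated WAPL-NIPBL replicate 1, 13 without untreated WAPL-NIPBL replicate 3, 14 without treated WAPL-NIPBL replicate 3, 41 with the replicate block and 113 with the block over the 12 libraries alone. Exons of Has2 and Islr2 overlap genes on the other strand, as do those of Elmo1, Bmp4, Bach2, Sdc3, Fst, Tbx3, Ccnd1, Pou5f1, Ryr3 and Ank2 described below.

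Few responses grew. Ephb6, an Eph receptor, rose in both lines, with log2 changes of 0.37 and 1.07 and an interaction of 0.70 (adjusted p = 0.0494), but was called in 5 of 18 alternatives. Leaving out any of 10 libraries ended the call, with 0.191 without untreated WAPL-NIPBL replicate 2. Sdc3, a syndecan proteoglycan, changed by 0.36 and 0.97, was called in 11 of 18 alternatives, lost its call without any of 6 libraries, and reached an adjusted p of 0.149 without untreated WAPL-NIPBL replicate 3. The enlarged class held 0 to 23 genes across the alternatives.

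The 42 combined-line genes were split into 18 that fell and 24 that rose in the combined line. Elmo1, a partner of DOCK exchange factors in cell migration (chr13:20090596-20608353), stood at 13.4, 16.9 and 13.7 CPM in the untreated WAPL line and at 17.7, 17.6 and 16 CPM after auxin, with overlap. It fell from 11.4, 12.8 and 11.5 CPM to 4.2, 5.57 and 5.28 CPM in the combined line. The change there was -1.23 and the interaction -1.45 (SE 0.235, adjusted p = 0.000194). Kndc1, a neuronal Ras exchange factor, and Itgb7, an integrin subunit, fell by 1.56 and 1.12 on the log2 scale in the combined line, with interactions of -1.14 and -1.07. Bmp4, a secreted ligand of the BMP pathway, stood at 11.9, 9.87 and 10.2 CPM before auxin and at 14.5, 13.4 and 12.4 CPM after it. In the combined line it fell from 11.4, 9.02 and 9.71 CPM to 7.44, 6.19 and 5.46 CPM, an interaction of -0.99 (adjusted p = 0.0156, and 0.0519 without treated WAPL-NIPBL replicate 3). Tnni3, cardiac troponin I, rose from 23.6, 19.9 and 20 CPM to 38.9, 30.1 and 29.2 CPM in the combined line, with an interaction of 0.94 (adjusted p = 0.0065). The other 3 largest that rose were Srgn, Foxd1 and Htatip2, with interactions of 1.33, 1.28 and 0.97. They were called in 10, 10 and 8 of 18 alternatives, with adjusted p up to 0.162, and each lost its call when any of 7 or 8 of the 12 libraries was left out. The combined-line class held 25 genes without treated WAPL-NIPBL replicate 1, 84 with the replicate block and 185 with the block over 12 libraries.

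The 622 retained genes responded alike in both lines within the bound set, 333 falling and 289 rising. The median log2 change was -0.42 in the WAPL line and -0.32 in the combined line for those that fell, and 0.51 and 0.41 for those that rose. Their mean counts were higher (median 1452 fragments) than those of weakened genes (519.9), and the interval bound favours well-counted genes. Bach2, a transcriptional repressor (chr4:32238804-32586108), fell from 14.3, 17.6 and 15.1 CPM to 4.14, 6.04 and 6.29 CPM in the WAPL line and from 13.4, 14.1 and 12.4 CPM to 5.88, 4.23 and 4.7 CPM in the combined line. The log2 changes were -1.50 and -1.44, and the interaction was 0.06 (95% interval -0.36 to 0.47). Slit2, an axon guidance ligand, changed by -1.21 and -1.26, Dcbld1 by -1.32 and -1.12, and Rbm43 by -1.02 and -0.99. Dusp10, a phosphatase of stress-activated kinases, rose from 8.19, 9.17 and 8.38 CPM to 26.1, 23.5 and 24 CPM and from 5.21, 4.41 and 5.03 CPM to 11.8, 11.6 and 12.6 CPM, with an interaction of -0.21 (95% interval -0.56 to 0.14). Gpx2, a glutathione peroxidase, Duox1, a dual oxidase, and Flrt3, an adhesion protein, rose by 1.16, 1.14 and 1.10 in the WAPL line and by 1.10, 1.14 and 0.88 in the combined line. None of these 8 had a called interaction in any of 18 alternatives. The class held 391 genes without untreated WAPL-NIPBL replicate 1, 393 without untreated replicate 3, 378 without treated replicate 3, 991 with the replicate block and 1706 with the block over 12 libraries.

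**Figure D2:**
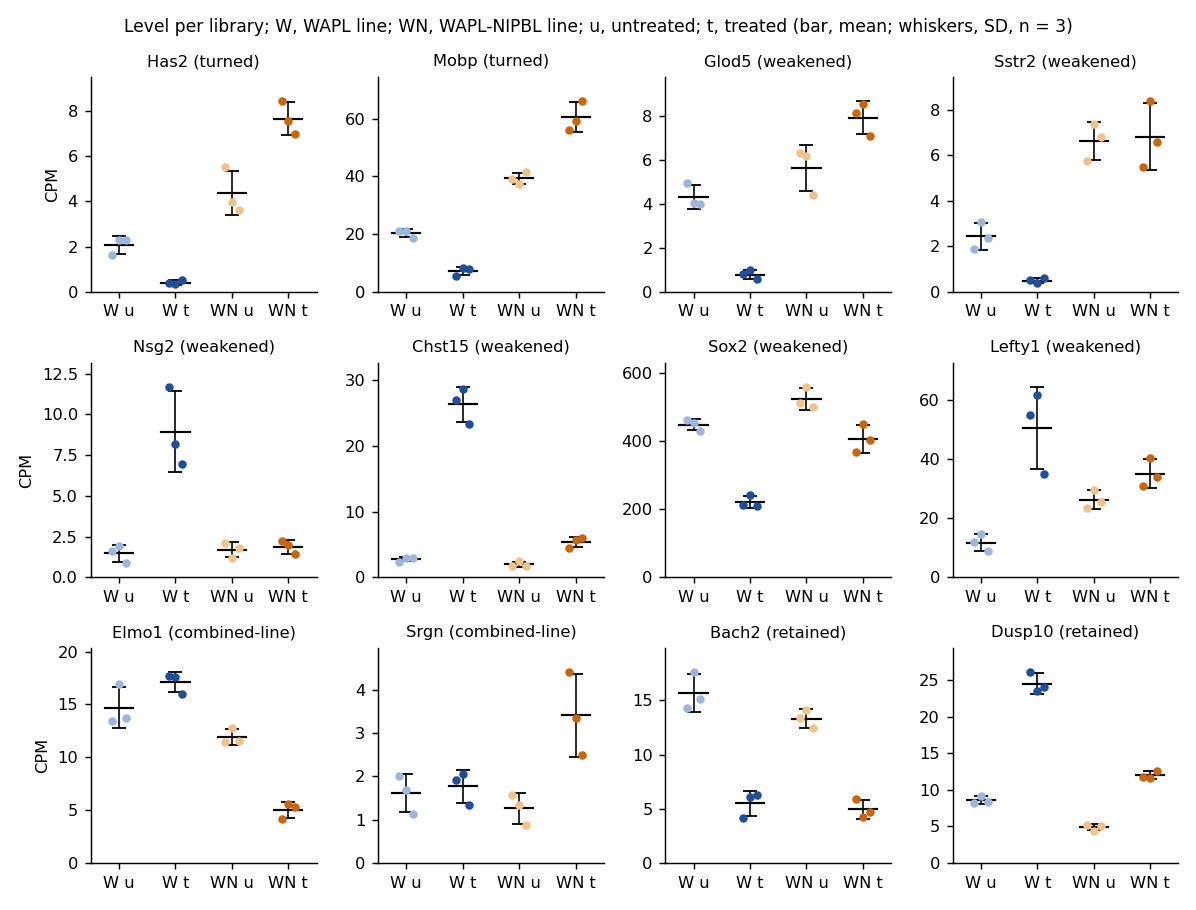
CPM in each of the 12 libraries (points) for 12 genes, with bars for the mean and whiskers for the SD of 3 libraries, W for the WAPL line, WN for the combined line, u for untreated and t for treated. Has2 and Mobp lie lower after treatment of the WAPL line and higher after treatment of the combined line, Nsg2 is high only in the treated WAPL line (6.95 to 11.7 CPM), and Bach2 and Dusp10 shift the same way in both lines.

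Some pluripotency genes were weakened and some retained. Of 18 tested genes of the naive state, 12 fell under auxin in the WAPL line and 11 in the combined line (15.8% and 3.45% of all genes fell), 6 were retained, and 3 had a called interaction, each of them higher (16.7%, against 5.19% of all genes). On leaving out a library the naive list held 1 to 4 such genes. The count was 1 without untreated or auxin-treated WAPL replicate 2, untreated WAPL replicate 1, auxin-treated WAPL replicate 3, or, in the combined line, untreated replicate 1 or 3 or treated replicate 2 or 3. The median log2 change of the list was -0.47 in the WAPL line and -0.30 in the combined line, against 0.00 and 0.01 over all genes. Prdm14, a factor that guards the naive state, fell from 54.9, 51.9 and 51.4 CPM to 22, 21.4 and 22.2 CPM and from 53.9, 53.5 and 56.4 CPM to 31.4, 34.9 and 35.9 CPM. The changes were -1.27 and -0.68, and the interaction was 0.59 (SE 0.112, adjusted p = 0.00114). Klf4 and Tbx3 had interactions of 0.50 and 0.36, called in 8 and 5 of 18 alternatives. The call of Klf4 was lost on leaving out any of 9 libraries and that of Tbx3 on leaving out any of 12, with adjusted p up to 0.171 and 0.128. Sox2, a core pluripotency factor (chr3:34650405-34652461), fell from 461, 453 and 429 CPM to 211, 240 and 210 CPM in the WAPL line. In the combined line it fell from 510, 559 and 499 CPM to 368, 448 and 401 CPM. The changes of -1.02 and -0.37 gave an interaction of 0.66 (SE 0.11, adjusted p = 0.000277). It was the only called gene of 12 core pluripotency genes.

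Other pluripotency genes fell in both lines with no called interaction. Zfp42, known as Rex1, fell from 587, 553 and 552 CPM to 312, 312 and 310 CPM and from 538, 502 and 518 CPM to 357, 320 and 313 CPM, with an interaction of 0.20 (95% interval -0.01 to 0.42). Nanog changed by -0.30 and -0.27, and Pou5f1 by -0.39 and -0.28. Esrrb changed by -0.52 and -0.29, with an interaction of 0.23 and an adjusted p of 0.0598, and its interaction was called with DESeq2, with the replicate block (0.0309 over the 30 libraries and 0.00879 over the 12) and without auxin-treated WAPL replicate 1 (0.0233). The interaction of Zfp42 was called with the block over the 12 libraries alone (0.0277). These 4 genes were classed as retained.

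Genes of the formative and primed epiblast had 3 lower interactions and none higher among 14 (21.4% called, against 5.19% of all genes), and 2 to 4 lower on leaving out a library. Lef1, a mediator of Wnt signalling, rose from 7.14, 6.77 and 5.47 CPM to 29.7, 29.8 and 26.3 CPM in the WAPL line and from 12.5, 9.27 and 9.04 CPM to 22.5, 14.6 and 16.1 CPM in the combined line. The changes were 2.14 and 0.79, and the interaction was -1.35 (SE 0.257, adjusted p = 0.00124). Dnmt3a, a de novo DNA methyltransferase, rose by 0.45 in the WAPL line, with a combined-line change of -0.16 that was not called and an interaction of -0.61 (adjusted p = 0.00269). Sox4 was called in 9 of 18 alternatives and lost its call on leaving out any of 8 libraries, with adjusted p up to 0.167. Exons of Lef1 and Dnmt3a overlap genes on the other strand.

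Among markers of other fates, counts were small and both directions occurred. Over all genes, 5.19% were called in the interaction, 3.03% higher and 2.16% lower. Of 20 tested genes of primitive streak and mesoderm, 2 were higher and 2 lower (20%), with 1 lower without untreated or treated WAPL-NIPBL replicate 3. They included Gsc, a homeodomain factor of the organizer, which changed by -1.14 in the WAPL line and by 0.24, not called, in the combined line (interaction 1.38, adjusted p = 0.00161). Of 20 endoderm genes, 2 were higher, the laminin chain gene Lama1 and Sox21, and none lower (10%). The higher count was 1 without treated replicate 2 or untreated replicate 3 of the combined line or untreated WAPL replicate 2. The median interaction of the endoderm list was -0.08. The replicate block called 2 lower beside the 2 higher, the block over the 12 libraries 3 lower, and the fit with no filter on low counts 3 lower. Without untreated WAPL-NIPBL replicate 1 or auxin-treated WAPL replicate 1 the list had 1 lower gene. The 7 primitive endoderm markers summed to 10.3 to 13.2 CPM in the untreated WAPL line, 38.1 to 53.8 CPM after auxin, 5.78 to 6.21 CPM in the untreated combined line and 14.3 to 15.7 CPM after treatment. Dab2, an endocytic adaptor, held most of the sum after auxin, at 35.4 CPM on average after auxin and 4.4 CPM in the treated combined line, and its interaction of -0.73 was not called (adjusted p = 0.186). Gata6, the defining factor, stayed at 1.23 CPM or below on average in every group. In bulk RNA, more cells of a type and more RNA per cell cannot be told apart, and the part of such cells in other results was not tested. Of 19 trophoblast and simple epithelium genes, 4 were higher and 2 lower (31.6%). The higher genes numbered 2 without treated replicate 2 or 3 of the combined line or auxin-treated WAPL replicate 3. The lower genes numbered 4 without untreated replicate 1 or treated replicate 2 of the combined line. Tfap2c, a factor of trophoblast and germ cells, fell from 84, 72 and 89 CPM to 18.3, 18.2 and 18.7 CPM and from 52.2, 54.6 and 61 CPM to 20.9, 21.6 and 23.8 CPM, an interaction of 0.81 (SE 0.109, adjusted p = 1.97e-05). Krt18, a keratin of simple epithelia, rose by 1.37 under auxin and changed by 0.25, not called, in the combined line, an interaction of -1.12 (adjusted p = 0.0125). The trophoblast markers summed to at most 13.8 CPM in any library. Of 15 neural progenitor genes, 2 were higher, Mapt and Stmn2, and none lower (13.3%). The higher count was 1 without untreated WAPL replicate 1 or 3, auxin-treated WAPL replicate 1 or 3, or, in the combined line, untreated replicate 2 or 3 or treated replicate 1 or 2. With the replicate block 2 were lower, and with the block over the 12 libraries 4. The 4 tested neural progenitor markers summed to 131 to 154 CPM in the untreated WAPL line, 151 to 167 CPM after auxin, 175 to 205 CPM in the untreated combined line and 173 to 200 CPM after treatment. Both groups of the combined line thus lay above both groups of the WAPL line, with Nes and Tubb3 holding most of the sum. Pax6 stood at 1.13 CPM or below on average in every group. The 5 mesoderm markers summed to at most 23.7 CPM. Of 16 two-cell-like genes, 14 rose in the WAPL line (17% of all genes rose) and none in the combined line, and 2 (12.5%), Zscan4a and Zscan4e, had a lower interaction. Without untreated WAPL-NIPBL replicate 3 none of the 16 had one. The count was 1 without auxin-treated WAPL replicate 1 or 2, untreated WAPL replicate 3, or, in the combined line, untreated replicate 2 or treated replicate 2 or 3. Zscan4a and Zscan4e are near-identical copies with low counts, so reads could not be assigned to 1 member with certainty.

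Signalling genes were called as ligands, antagonists and effectors alike. Lefty1, an antagonist of Nodal, rose from 11.9, 14.5 and 8.82 CPM to 54.9, 61.7 and 34.9 CPM in the WAPL line and stood at 23.5, 29.6 and 25.6 CPM untreated and 30.9, 40.4 and 33.9 CPM treated in the combined line. The interaction was -1.69 (SE 0.257, adjusted p = 9.37e-05). Fst, which binds activin, fell from 13.7, 14.6 and 14.4 CPM to 3.11, 4.25 and 3.6 CPM in the WAPL line, while the combined-line groups overlapped, at 5.35, 5.32 and 4.33 CPM and 4.41, 3.28 and 3.8 CPM. The interaction was 1.56 (adjusted p = 0.000115). In both genes the treated groups of the lines overlapped, and the untreated lines differed, by 1.16 for Lefty1 and -1.51 for Fst. Of 15 BMP genes, Smad9, a receptor-activated SMAD, was higher (1.57), and the ligands Bmp4 and Bmp7 (-0.58) and the target Id1 (-1.44) were lower (26.7% called, against 5.19% of all genes). Of 17 Wnt genes, 2 were higher and 2 lower (23.5%), Ccnd1, cyclin D1, among the higher (0.68). The lower ones, Bmp4 and Lef1, were also called members of other lists, Bmp4 of the BMP and primitive streak lists and Lef1 of the formative list. On leaving out a library 1 to 2 Wnt genes were higher and 1 to 3 lower. The higher count was 1 without untreated WAPL replicate 1 or 2, auxin-treated WAPL replicate 2, or, in the combined line, untreated replicate 1 or 3 or treated replicate 1 or 2. The lower count was 1 without treated WAPL-NIPBL replicate 3, and it was 6 with the replicate block over the 12 libraries. Crabp2, a carrier of retinoic acid, rose by 1.65 in the WAPL line and had an interaction of -1.35 (adjusted p = 0.00193).

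Several genes of DNA replication and amino acid supply fell less in the combined line. Of 33 DNA replication genes, 26 fell in the WAPL line and 8 in the combined line (15.8% and 3.45% of all genes fell), and 5 (15.2%, against 5.19% of all genes) had a higher interaction and none a lower one. Without treated replicate 1 or untreated replicate 2 of the combined line the count was 3. With the 12 libraries alone it was 2, and with the replicate block over the 12 libraries it was 14. The median change was -0.40 and -0.17. Rrm2, a subunit of ribonucleotide reductase, fell from 430, 361 and 411 CPM to 279, 246 and 252 CPM and overlapped in the combined line, at 473, 434 and 441 CPM and 468, 398 and 422 CPM. Its interaction was 0.56 (SE 0.11, adjusted p = 0.00152). Pola2, a subunit of DNA polymerase alpha, had an interaction of 0.43. Of 23 targets of amino acid stress, 14 fell in the WAPL line and 6 in the combined line, with 4 interactions higher and 1 lower (21.7% called). Asns and Slc3a2, both among the 4, were called in 8 and 9 of 18 alternatives, and the higher count was 2 on leaving out untreated replicate 1, untreated replicate 3 or treated replicate 2 of the combined line, untreated WAPL replicate 1 or auxin-treated WAPL replicate 3. Slc7a3, a transporter of cationic amino acids, fell from 88.2, 92 and 84.5 CPM to 13.8, 19.8 and 14.8 CPM and from 80.8, 73.9 and 80.7 CPM to 26.6, 31.7 and 26.2 CPM, an interaction of 0.97 (SE 0.179, adjusted p = 0.000887). Slc7a5, a large neutral amino acid transporter, had 0.65, and Atf3, a stress-induced factor, had -1.12. Of 19 p53 targets, 11 rose in the WAPL line and 3 in the combined line (17% and 5.11% of all genes rose), and 2 were lower in the interaction (1 without untreated WAPL-NIPBL replicate 1, and 4 and 7 with the replicate block over 30 and 12 libraries), including Mdm2, the ligase that targets p53 (-0.34, with an adjusted p of 0.0561 when no filter on low counts was applied).

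Adhesion and matrix genes were called in both directions, and their shares stand beside 5.19% of all genes. Of 19 genes of epithelial and mesenchymal state, 11 rose in the WAPL line and 2 in the combined line (17% and 5.11% of all genes rose), and 5 (26.3%) had a lower interaction, with 3 to 5 on leaving out a library. The count was 3 without treated replicate 1 or untreated replicate 2 of the combined line, untreated WAPL replicate 1 or 2, or auxin-treated WAPL replicate 3. They included genes of both states: Cldn6, a tight junction claudin (-1.27), and Cdh1, E-cadherin (-0.33), beside Snai2, a repressor of Cdh1 (-1.30). Of 47 collagen and laminin chains, 4 were higher and 6 lower (21.3% called), and on leaving out a library 2 to 5 and 4 to 7. The higher count was 2 without treated WAPL-NIPBL replicate 1 or auxin-treated WAPL replicate 3. Col5a3, a fibrillar collagen chain, rose from 6.15, 4.94 and 5.75 CPM to 10.9, 10.3 and 9.95 CPM in the WAPL line and overlapped in the combined line, at 3.46, 3.24 and 2.93 CPM and 2.47, 2.7 and 3.22 CPM, an interaction of -1.07 (adjusted p = 0.0028). Of 34 replication-dependent histone genes, 4 were lower, Hist1h4i among them (-1.21), and 2 without untreated WAPL replicate 2. Histone transcripts mostly lack a polyA tail and have near-identical copies, so these counts are uncertain.

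No member had a called interaction among 76 cytosolic ribosomal protein genes, 32 clustered protocadherins and 30 Hox genes. Over all genes 5.19% were called, and these counts of 0, from edgeR and likewise from DESeq2, are given as a description only. At an unadjusted p under 0.05 in edgeR, 7 ribosomal protein genes were higher, 6 protocadherins lower, and 1 Hox gene higher and 3 lower. With the replicate block 2 ribosomal protein genes and 1 Hox gene were called, and with the block over the 12 libraries 6 ribosomal protein genes were higher and 2 Hox genes lower. A ribosomal protein gene and a protocadherin were called without auxin-treated WAPL replicate 1, and a Hox gene without untreated WAPL replicate 2 or treated WAPL-NIPBL replicate 3. With the 12 libraries alone and no block, 1 ribosomal protein gene was higher. With no filter on low counts 1 protocadherin and 2 Hox genes were called. The Hox list had a median change of 0.61 in the WAPL line and 0.72 in the combined line, against 0.00 and 0.01 over all genes. Of its 30 genes, 13 and 4 were called higher (17% and 5.11% of all genes rose). Among 374 zinc-finger genes named Zfp, 6 were higher and 6 lower (3.21%), and among 264 solute carriers 13 were higher and 6 lower (7.2%).

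**Figure D3:**
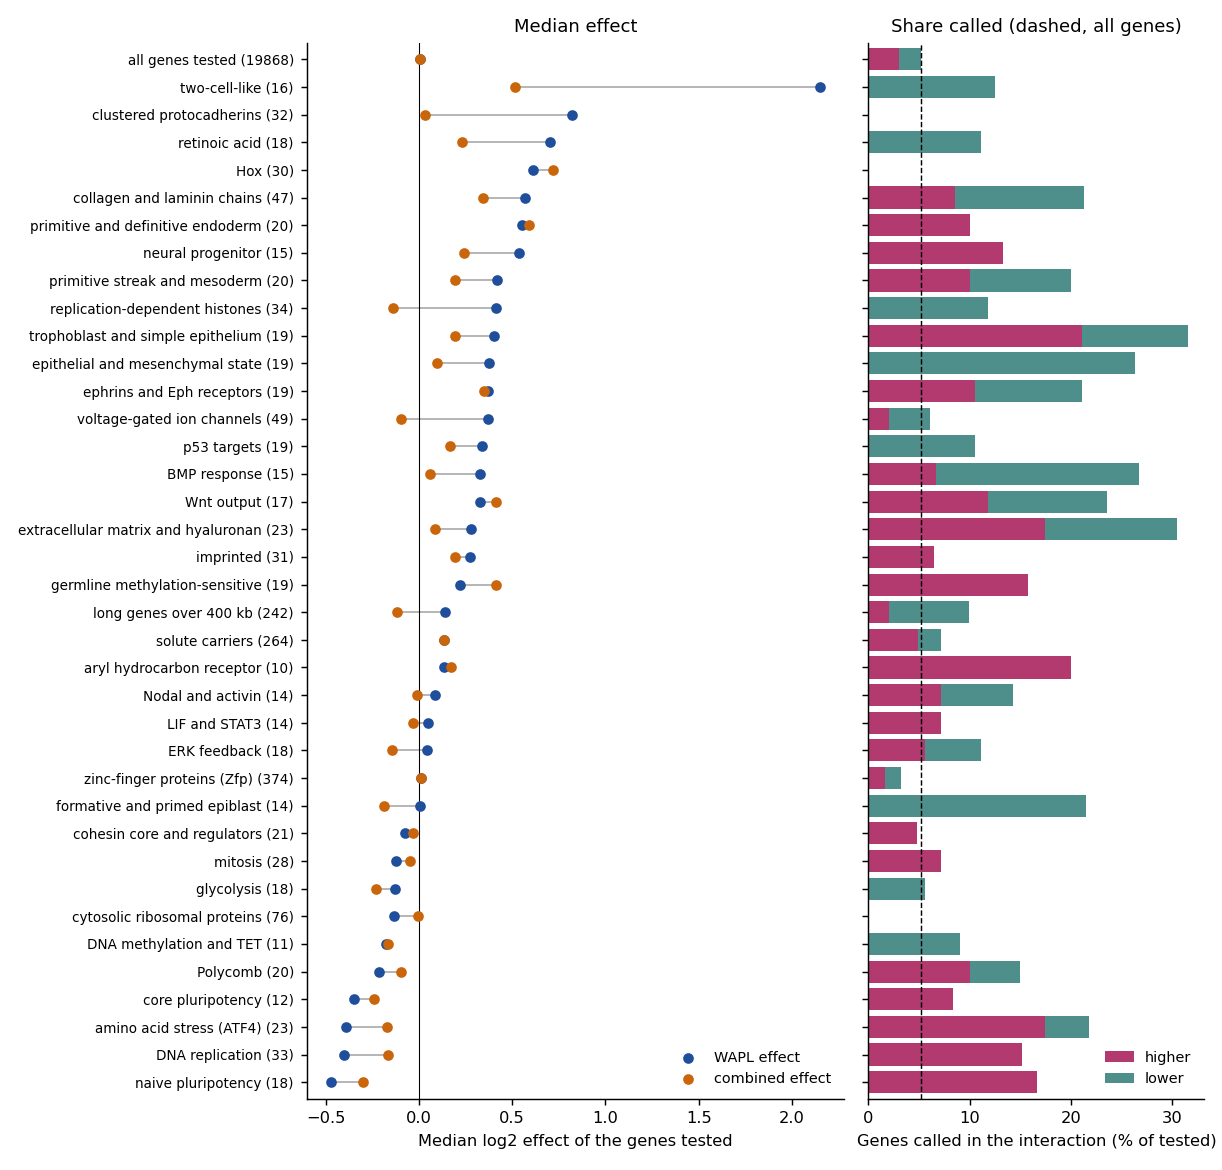
Left, points give the median log2 change of each gene list in the WAPL line (blue) and the combined line (orange), with the number of genes tested in parentheses. Right, bars give the percentage of those genes called higher or lower in the interaction, with a dashed line at 5.19% for all genes. The naive pluripotency and DNA replication lists lie below 0 in both lines, and the two-cell-like list stands at 2.15 and 0.516.

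An interaction can come from a difference between the treated lines or from one that was there before treatment. Of the 1032 called genes, the treated lines differed in 89.2% and the untreated lines in 31.4%, against 29.7% and 10.7% over all genes tested. In 693 genes (67.2%) only the treated lines differed, in 228 both pairs differed, in 96 only the untreated lines, and in 15 neither. The median size of the log2 difference was 0.71 between treated and 0.22 between untreated lines. Wwox, an oxidoreductase gene at a common fragile site, belonged to the first group: its untreated lines differed by 0.17 (adjusted p = 0.274) and its treated lines by 1.29. Lefty1, Fst and Msc had differences between the untreated lines, and the treated groups of Lefty1 and Fst overlapped. These comparisons share libraries with the interaction and describe its make-up. More genes were called between the untreated lines with the replicate block over the 12 libraries, as given below, and the split was not repeated there.

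**Figure D4:**
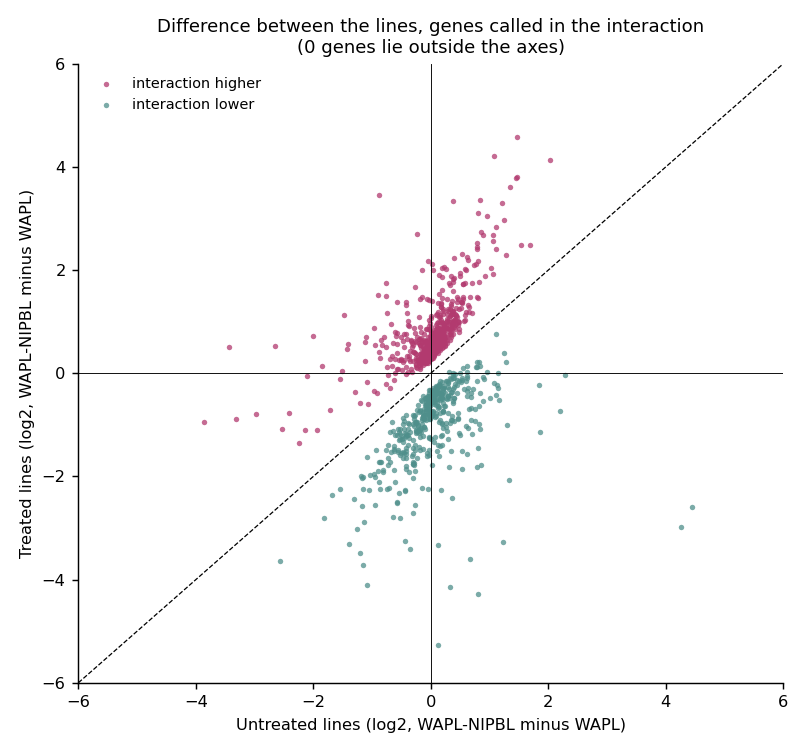
Difference between the combined line and the WAPL line in log2 units, untreated on the x axis and treated on the y axis, for the 1032 called genes, coloured by the sign of the interaction, with a dashed line where both differences are equal. The genes spread further along the y axis (median size 0.71) than along the x axis (0.22).

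The same loss of NIPBL was paired with loss of PDS5A and PDS5B in a further pair of lines. The PDS5AB line (cell line EN293.1) carried PDS5A-AID, PDS5B-AID and Tir1, and the PDS5AB-NIPBL line (cell line EN331.2) carried NIPBL-FKBP and RAD21-Halo as well. Each had 3 untreated and 3 treated libraries, the first after 24 h in 500 µM auxin and the second after 24 h in that dose of auxin with 500 nM dTAG-13. The PDS5AB interaction is the change in the second line minus that in the first, and in it too NIPBL loss, dTAG-13, the RAD21 tag and the cell line cannot be told apart. Their 12 libraries do not enter the estimate of the interaction above, but they share in its estimate of spread, and with the 12 compared libraries alone 715 genes were called. The PDS5AB interaction was called in 1879 genes (9.46%). It was called in 319 of the 1032 genes, which is 30.9% of the WAPL interaction list and 17% of the PDS5AB list, in one direction for 291 and in opposite directions for 28. Among genes called in the WAPL line the share was 17.1%, and among retained genes 23.5%, which had the higher counts given above. Mobp had a PDS5AB interaction of 3.74 (adjusted p = 8.85e-10), Rrm2 of 1.08, Slc7a3 of 1.45, Sox2 of 0.81, Fkbp6, a co-chaperone of the germline, of 1.17 beside 1.12 here, and Id1 of -2.21. Has2, Nsg2 and Lefty1 had PDS5AB interactions of -0.57, -0.42 and -0.20, none called.

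The difference between both interactions, a contrast added after the data were seen, was called in 327 genes (1.65%), 198 higher and 129 lower. Cxcl14 had interactions of 2.42 with WAPL and -0.86 with PDS5AB, both called, a difference of 3.27 (adjusted p = 1.26e-07). Tfap2c had 0.81 and -0.77, a difference of 1.58 (adjusted p = 3.39e-07), and Bnc2 -1.45 and 0.65, a difference of -2.10 (adjusted p = 3.21e-05). For Lef1 (-1.98, adjusted p = 0.00267), Has2 (3.71, adjusted p = 0.00034) and Lefty1 (-1.48, adjusted p = 0.0299) the difference was called as well. For Sox2 (-0.15), Prdm14 (0.18) and Chst15 (-0.58) it was not.

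Called genes were often neighbours. Of the 1032, 189 (18.3%) had a called gene next to them among the genes tested, against 1996 (10%) of all 19868. There were 103 adjacent called pairs, 79 in one direction. In 13 pairs the genes overlap, and reads counted without strand cannot separate them, but 67 of the 90 pairs that do not overlap also had one direction. The pairs gave 13 runs of at least 3 genes, 8 of them in 1 direction. The runs named here were singled out after their values were seen.

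On chromosome 3, She, an SH2-domain adaptor, fell from 44.1, 47.7 and 48.8 CPM to 7.4, 13.4 and 10.5 CPM and from 57.1, 54.9 and 55.8 CPM to 38.9, 43.8 and 45.9 CPM, an interaction of 1.78 (SE 0.157, adjusted p = 1.69e-08), between Ube2q1 (0.28) and Il6ra (0.55). The calls of these neighbours were lost without treated WAPL-NIPBL replicate 2 (Ube2q1, adjusted p = 0.0534, and also with the 12 libraries alone and with no filter on low counts, up to 0.226) and without auxin-treated WAPL replicate 3 (Il6ra, 0.0561).

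A run of 249 kb on chromosome 13 joined the chemokine gene Cxcl14, the turned gene Slc25a48 and Fbxl21, with interactions of 2.42, 1.85 and 1.97. Fbxl21 had a mean of only 21.25 fragments per library and an adjusted p of 0.0617 without untreated WAPL-NIPBL replicate 1. The promoters of the first pair are shown as those of neighbouring genes with large interactions, chosen after their values were seen, with RefSeq sequence on GRCm38.p6 from 250 bases before to 50 bases after the start, 5′ to 3′ on the gene's strand. Capitals mark CpG dinucleotides, 22 in Cxcl14 (chr13:56296502-56296801, minus strand) and 14 in Slc25a48 (chr13:56438105-56438404, plus strand).
Cxcl14: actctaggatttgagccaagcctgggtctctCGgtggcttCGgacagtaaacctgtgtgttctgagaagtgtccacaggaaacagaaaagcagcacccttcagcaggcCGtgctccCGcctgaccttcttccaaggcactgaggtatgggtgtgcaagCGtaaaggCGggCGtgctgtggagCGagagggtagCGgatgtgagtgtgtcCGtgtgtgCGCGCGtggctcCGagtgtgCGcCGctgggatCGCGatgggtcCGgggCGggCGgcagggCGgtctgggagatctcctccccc
Slc25a48: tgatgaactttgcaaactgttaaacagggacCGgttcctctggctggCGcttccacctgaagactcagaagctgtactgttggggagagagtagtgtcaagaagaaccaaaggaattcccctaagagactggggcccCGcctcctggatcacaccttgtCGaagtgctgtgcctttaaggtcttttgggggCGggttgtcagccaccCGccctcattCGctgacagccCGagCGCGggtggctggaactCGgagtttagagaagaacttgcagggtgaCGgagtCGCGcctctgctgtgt

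Both windows are CpG-containing promoters, near the median of 19 CpG over the 12710 tested genes with a window. Among genes weakened or turned after a fall the median was 20 CpG, and among those weakened or turned after a rise it was 17. Fewer than 5 CpG were found in 6.87% and 15.3% of these promoters, against 11.1% of all and 4.56% and 5.53% of promoters of retained genes that fell and rose. The motif TATAAA, searched on both strands, was in 6.58% of windows of called genes and 7.68% of all. These shares are descriptions, with no test.

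The core of the CTCF motif, searched by name on both strands over 12 letters, was found in 93 of 12710 windows (0.732%). It was in 11 windows of called genes (1.45%). Of these, 9 were among 422 genes weakened or turned after a fall (2.13%) and 2 among 295 after a rise (0.678%). Among retained genes it was in 1 of 263 that fell and 2 of 235 that rose. The counts are small, a match is no evidence of binding, and no window without one speaks about CTCF. Examples chosen after their values were seen are shown with the match in capitals, for Hs1bp3 (chr12:8313183-8313482, plus strand), Lsm11 (chr11:45944886-45945185, minus strand) and Samd9l (chr6:3399522-3399821, minus strand).
Hs1bp3: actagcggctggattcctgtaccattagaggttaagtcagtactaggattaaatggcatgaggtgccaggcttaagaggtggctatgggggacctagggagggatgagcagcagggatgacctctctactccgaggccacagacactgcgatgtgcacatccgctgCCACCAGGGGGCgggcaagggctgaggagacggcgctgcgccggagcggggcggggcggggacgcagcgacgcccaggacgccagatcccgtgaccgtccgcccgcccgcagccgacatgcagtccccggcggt
Lsm11: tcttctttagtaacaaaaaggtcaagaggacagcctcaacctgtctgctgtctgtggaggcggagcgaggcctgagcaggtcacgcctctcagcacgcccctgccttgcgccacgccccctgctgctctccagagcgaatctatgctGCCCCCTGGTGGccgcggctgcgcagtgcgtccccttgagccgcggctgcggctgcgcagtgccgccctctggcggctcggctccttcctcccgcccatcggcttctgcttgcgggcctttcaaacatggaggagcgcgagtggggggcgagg
Samd9l: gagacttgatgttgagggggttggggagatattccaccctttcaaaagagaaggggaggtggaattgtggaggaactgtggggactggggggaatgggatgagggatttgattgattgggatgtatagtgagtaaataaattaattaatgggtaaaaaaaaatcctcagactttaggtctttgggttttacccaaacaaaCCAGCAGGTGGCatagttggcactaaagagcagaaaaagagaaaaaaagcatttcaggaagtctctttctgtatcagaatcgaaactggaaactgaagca

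All these genes fell under auxin in the WAPL line. Hs1bp3 changed by -0.73 there and by 0.18, not called, in the combined line, an interaction of 0.91 (adjusted p = 1.87e-05). Lsm11, a component of the U7 snRNP that processes histone transcripts, changed by -0.47 and 0.16, an interaction of 0.63 (adjusted p = 0.0013). Samd9l, an interferon-induced gene, changed by -1.40 and 0.32, an interaction of 1.72 (adjusted p = 0.000351). Each was called in 18 of 18 alternatives.

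Among called genes, the share with a lower interaction was larger for long genes than for short ones, as a description with no test. Of 275 called genes that span under 10 kb, 84 (30.5%) were lower, and of 309 that span 10 to 30 kb, 86 (27.8%). The share was 46.2% of 262 called genes at 30 to 100 kb, 74.1% of 162 at 100 to 400 kb and 79.2% of 24 over 400 kb. The share called among all tested in these bins went from 3.57% to 9.92%. With genes of a mean of at least 50 fragments alone, a restriction added after the data were seen, the lower shares were 24.1%, 26.6%, 44.6%, 74.5% and 78.9%, the last over only 19 called genes. The share called under 10 kb was then 6.58% and over 400 kb 15.4%. The median interaction of all tested genes was 0.03 under 10 kb, -0.12 at 100 to 400 kb and -0.27 over 400 kb, and with that restriction 0.06, -0.09 and -0.16. The direction of the WAPL effect varied with length too. Under 10 kb 882 genes were called higher and 859 lower under auxin, against 552 and 291 at 100 to 400 kb. Over 400 kb the counts were 61 and 43. With that restriction they were 463 and 722, 407 and 255, and 32 and 32. Most called genes were weakened, with an interaction opposite to their WAPL effect, so the lower share is not separate from these directions.

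Of the 242 genes over 400 kb, 19 were lower and 5 higher. With the replicate block over the 12 libraries 35 were lower and 10 higher, and with the 12 libraries alone 13 and 4. Ryr3, an intracellular calcium channel, rose from 2.84, 3.84 and 3.54 CPM to 9.55, 11.6 and 11.9 CPM in the WAPL line and overlapped in the combined line, at 1.94, 1.8 and 1.54 CPM and 1.86, 2.05 and 1.71 CPM. The interaction was -1.60 (SE 0.273, adjusted p = 0.000351). Ank2, an ankyrin that anchors membrane proteins, and Lpp, an adhesion protein, had interactions of -1.08 and -0.96. Among the 5 higher genes were Rims1, a presynaptic scaffold, at 1.80, and Wwox at 1.11. Rims1 fell from 4.91, 4.41 and 4.96 CPM to 0.958, 0.968 and 1.33 CPM in the WAPL line and overlapped in the combined line.

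**Figure D5:**
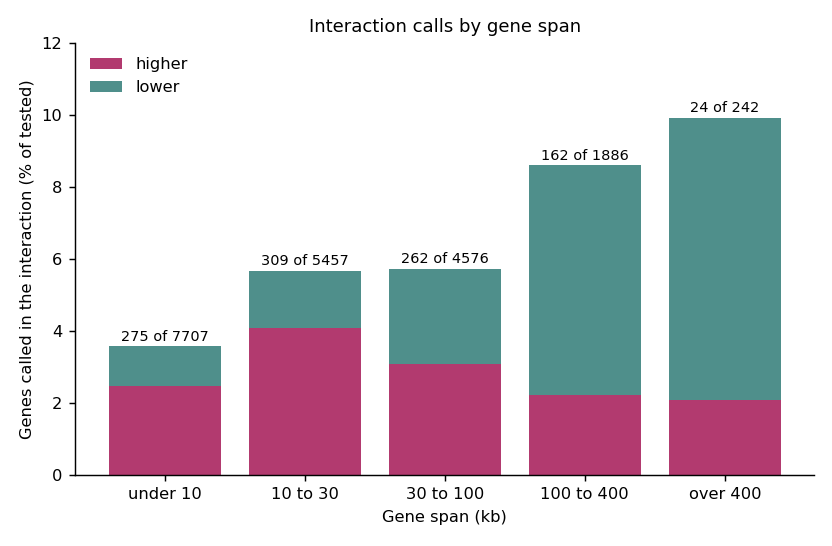
Genes tested are binned by the length of the gene from start to end in kb on the x axis, with the percentage of genes called higher and lower in the interaction stacked on the y axis and the number called above each bar. Higher calls outnumber lower ones below 30 kb, and at 100 to 400 kb 120 of 162 called genes were lower.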

How the data were processed

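Raw counts, deposited as whole fragments for each gene, were made by the authors with featureCounts 2.0.1, per the file headers, on read pairs and with no strand option, although the labels describe a stranded kit. Reads from genes that overlap on opposite strands therefore cannot be separated. Adapter trimming with cutadapt, alignment with STAR 2.7.7a and the build mm10/GRCm38.p6 come from the submitters' processing notes. Identifiers were matched to symbols for 55154 of 55421 genes (99.5%). Total counts per library (22235051 to 33976968) are given in the report, and the precision rests on 3 libraries in each group.

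The 30 libraries were fitted together in edgeR 4.0.16 (R 4.3.3) with 1 coefficient for each of the 10 groups, filterByExpr (minimum count 10), TMM scaling (factors 0.95 to 1.06 in the 12 libraries) and the quasi-likelihood test with 20 residual degrees of freedom before moderation. The common biological coefficient of variation was 9.15%. Adjusted p-values are Benjamini-Hochberg over 19868 genes, and a gene was called under 0.05. Intervals are 95%. The script was tested on simulated data. Alternatives were DESeq2 1.42.0, its size factors, no filter, the 12 libraries alone, a replicate block, and leaving out each library.

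Replicate numbers from the labels pair the samples: over 12750 genes, deviations from group means correlated at 0.302 to 0.64 in all 18 same-numbered pairs and at -0.481 to 0.0222 between other numbers, and each of the 12 libraries correlated best with its own number. No libraries held identical counts.

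Genes were named if they averaged 50 counts or more in the 12 libraries and had an assigned name, by size of the interaction within each class (6 weakened of each direction, 4 of each other class), with the 3 largest called members of each list. The members and lists were chosen with earlier results of these data known. Some lists share called members, among them Bmp4, Lef1, Cdh1, Has2 and Lama1, so the shares of such lists are not separate results. Promoter sequences are from RefSeq on GRCm38.p6, matched by symbol for 12710 of the 19868 genes. The authors' counts of the TIR1 line entered the shared estimate of spread and gave its own effect of auxin. Some results of the comparison are not reported here.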

Additional observations from a re-analysis of the deposited data

Results flagged for a closer look

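In 9 of the genes named by the rule the interaction was called while the effects were called in opposite directions in the WAPL line and the combined line. The interactions were 3.13 for Has2, 2.11 for Mobp, 1.85 for Slc25a48, 1.77 for Islr2, 1.12 for Fkbp6 and 0.73 for Tex19.1, all of which fell in the WAPL line and rose in the combined line. They were -1.45 for Bnc2, -1.44 for Id1 and -0.54 for Ext1, which rose in the WAPL line and fell in the combined line. Fkbp6 stood at 46.9, 43.3 and 49.3 CPM before auxin and at 30.1, 24.7 and 26.8 CPM after it, and at 55.2, 50.9 and 51.3 CPM and 71.5, 67.8 and 60.2 CPM in the combined line. Tex19.1, a germline gene that represses retrotransposons, stood at 69.9, 62.7 and 72.1 CPM and 57.7, 57.3 and 55.6 CPM in the WAPL line, and at 48.4, 46.2 and 53.7 CPM and 67.3, 63.3 and 74.6 CPM in the combined line. Each interaction was called by edgeR's quasi-likelihood test.

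In 4 of the genes named by the rule the WAPL and PDS5AB interactions were called in opposite directions, and the difference between them was called too. It was 3.27 for Cxcl14, -2.10 for Bnc2, 1.59 for Sdc3 and 1.58 for Tfap2c. The same held for Il6ra, named as a neighbour of She, with a difference of 1.18. The interactions of Sdc3 were 0.61 with WAPL and -0.98 with PDS5AB.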

How the results depend on the processing

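Of the 191 genes examined singly, the 166 with a called interaction kept its sign in all 2988 values under the alternatives. Among the 25 not called, the sign changed in 43 of 450 values, in 9 genes with interactions near 0. Over both kinds 505 values lost the call and 5 gained one. The interaction was called for 1023 genes with RLE size factors, 1315 with DESeq2, 1105 with no filter, 715 with the 12 libraries alone, 1529 with the replicate block, and 713 to 1126 on leaving out a library. With the 12 libraries alone 392 genes were higher, and with a library left out 374 to 660. With the replicate block 667 genes were lower, 41 were turned, 84 were combined-line and 991 were retained. With the replicate block over the 12 libraries alone 2750 genes were called, 1455 higher and 1295 lower, with 2396 weakened genes, 113 turned, 23 enlarged and 185 combined-line, beside 1706 retained genes. The same block left 3955 genes called in the combined effect and 4057 called between the untreated lines. With a threshold of at least 2-fold 290 genes were called, 135 higher and 155 lower, 260 of them weakened, 13 turned, 0 enlarged and 10 combined-line. An interval within 2-fold gave 946 retained genes. Enlarged genes numbered 1 with RLE size factors, 4 with no filter and 0 with the 12 libraries alone. Combined-line genes numbered 66 with DESeq2, 68 with no filter and 26 with the 12 libraries alone. On leaving out a library, turned genes ranged from 13 to 27, enlarged from 0 to 1, weakened genes that fell from 335 to 589, combined-line from 25 to 61 and retained from 378 to 656. The cause of these shifts was not tested, and the smaller fits also held fewer libraries. Of the called genes, 120 had a mean under 50 fragments, where counting error limits precision. With the replicate block, the gene lists held 5 higher genes of the naive state, 7 of amino acid stress and 17 of the solute carriers, and 5 lower genes of the formative state, 4 of the p53 targets and 12 of the solute carriers. With the block over the 12 libraries alone, higher genes numbered 7 of the naive state, 10 of amino acid stress, 14 of DNA replication and 24 of the solute carriers. Lower genes then numbered 5 of the formative state, 7 of the p53 targets, 8 of epithelial and mesenchymal state, 9 collagen and laminin chains and 23 solute carriers, and Zfp genes 16 higher and 25 lower. On leaving out a library, p53 targets had 1 to 3 lower genes, histones 2 to 4, solute carriers 8 to 14 higher and 3 to 8 lower, and Zfp genes 3 to 6 higher and 3 to 12 lower. Solute carriers were lowest without auxin-treated WAPL replicate 3 (8 higher) and untreated WAPL replicate 3 (3 lower), and Zfp genes highest without auxin-treated WAPL replicate 1 (12 lower).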
